A study of Drosophila melanogaster with 4 samples.

Results

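Odorant-binding proteins were examined in heads of male flies fed sodium valproate (NaVP) and of males on normal food (NF). The 4 genes Obp56g, Obp56h, Obp59a and Obp99b were chosen because earlier work on these same arrays had called 1 clone of each with a ratio below the rest of the array. They are 4 of the 524 named genes with a spotted cDNA clone on at least 3 of the 4 arrays. The array holds 8 clones of them, of which 7 had values, all on 3 or 4 arrays, and 1 clone of Obp99b had none. A gene with more than 1 clone has them named A and B, A being the clone with the lower mean as deposited, so the order of A and B is fixed by that choice. Those first clones, Obp56g-A, Obp56h-A and Obp59a-A, and the measured clone of Obp99b are the 4 that chose the genes.

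Odorant-binding proteins are small secreted carriers of hydrophobic molecules. Support cells of smell and taste hairs release them into the fluid around the sensory dendrites, and several members are made outside sensory organs. In Drosophila, Obp59a is known from the antenna, where it is needed for sensing humidity. Obp56h of males has been linked to cuticular hydrocarbons and mating behaviour, and Obp56g is known from the mouthparts and as a seminal fluid protein. Obp99b, whose synonym is tsx, is known from the fat body of the male head.

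Oregon-R wild-type males, unmated and 10 to 11 days old, were moved to food with 0.33 mg/ml NaVP or to fresh NF for 3 days, in vials of 30 flies at 24 °C. NaVP, a drug given against epilepsy and bipolar disorder, is a known inhibitor of histone deacetylases. Each of the 4 two-colour cDNA arrays set RNA of a separate pool of NaVP heads against RNA of a separate pool of NF heads, so the 4 ratios form a single group. NaVP RNA was in Cy5 and NF RNA in Cy3 on arrays 1 and 2, and the dyes were exchanged on arrays 3 and 4, the swap arrays. Whole heads hold eye, brain, antenna, mouthparts and fat body, and fewer cells of a type cannot be told apart from less RNA per cell.

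Values are 1 log ratio per spot, taken as log2, with neither the base nor the direction stated. The adjacent spots of a clone were averaged and each array's median was subtracted, so 0 means the ratio of the middle clone of that array. Medians before this step ran from 0.24 to 1.05. Spots with a value numbered 1322 to 5225 of 27648 per array, fewest on array 2, and 1030 clones had values on at least 3 arrays. The order in which the labels list the dyes makes Cy5 over Cy3 the likely ratio, although the sample titles name NF first. If so, arrays 1 and 2 give NaVP over NF and the swap arrays must be turned in sign before averaging. If the authors had already turned them, the mean as deposited is NaVP over NF. Both means are given, and a value alike on all arrays as deposited is a dye difference, not a treatment difference, under the Cy5 over Cy3 reading. Across clones, Pearson's r as deposited was 0.55 between arrays 1 and 2, 0.39 between arrays 3 and 4, and -0.14 to 0.34 across orientations, a description over clones that share arrays.

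Of 7 photoreceptor genes on the array, 5 had values on at least 3 arrays (Arr1, chp, inaC, inaD and trpl), as had 3 of 4 neuronal genes (Gad1, Hdc and Rab3). The markers of antenna and other chemosensory organs, Phk-3 and lush, the latter itself an odorant-binding protein gene, had no value. Of 7 head fat body and sex-biased head genes, sxe2 had a value, on fewer than 3 arrays. Fbp1, Lsp2, fit and the yolk protein genes Yp1, Yp2 and Yp3 had none. Of the glial genes, Gs2 had values on at least 3 arrays and moody had none. Of 3 genes of male reproductive organs, Acp36DE had a value on 1 array. No intensities are in the table, so these are counts of spots that passed the authors' signal filter, not levels.

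The 4 clones that chose the genes lay below 0 as deposited in all 13 of their values, which the choice favours. Of all tested clones, 9.90% lay below 0 on every array with a value and 40.0% had a mean below 0. Obp56g-A was at -0.88 and -1.64 on arrays 1 and 2 and at -0.50 and -1.28 on arrays 3 and 4. It was the 1 of these clones measured on all arrays, and it was low in both dye orientations. Its mean as deposited was -1.08 ± 0.49 (SD, n = 4), a 2.11-fold lower ratio. With the swap arrays turned, arrays 1 and 2 were below 0 and arrays 3 and 4 above it, and the mean was -0.19 ± 1.32 (SD, n = 4; limma adjusted p = 0.938). That mean was not part of the choice and its spread is larger than its size.

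Obp56h-A was at -0.63 on array 1, -1.12 on array 3 and -2.15 on array 4, with no value on array 2. The value on array 4 was the 4th lowest of the 1602 clones measured there, a 4.44-fold lower ratio. Its mean as deposited was -1.30 ± 0.78 (SD, n = 3). With the swap arrays turned the mean was 0.88 ± 1.41 (SD, n = 3), with array 1 below 0 and both swap arrays above it, and it ran from 0.25 without array 4 to 1.64 without array 1. With 1 array in one orientation and 2 in the other, such a mean mixes dye and treatment under either reading.

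Obp59a-A was at -0.56 on array 1, -1.05 on array 3 and -0.75 on array 4, a mean as deposited of -0.79 ± 0.25 (SD, n = 3). Obp99b was at -0.40, -0.94 and -1.03 on the same arrays, a mean of -0.79 ± 0.34 (SD, n = 3). On array 4 both clones were among the lowest 5% of measured clones, at the percentiles 4.81 for Obp59a-A and 2.81 for Obp99b. On array 1 they stood higher, at the percentiles 10.8 and 17.7. Turned, the means were 0.41 ± 0.86 for Obp59a-A and 0.52 ± 0.80 for Obp99b (SD, n = 3 each). With an array left out these turned means ran from 0.09 (without array 3) to 0.90 (without array 1) for Obp59a-A and from 0.27 (without array 4) to 0.98 (without array 1) for Obp99b. In Obp56h-A, Obp59a-A and Obp99b the ratio was further below 0 on each of the swap arrays than on array 1, while Obp56g-A showed no such order.

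These 4 clones are among the 8 of 1030 (0.777%) called lower as deposited by limma at an adjusted p under 0.05. That fit chose them, so no p is given for them. The 8 called clones had means from -1.70 to -0.79, and Obp99b and Obp59a-A were the called clones nearest to 0. Outside the threshold, the next clones by adjusted p were unnamed. Their means were 0.52 ± 0.15 and 0.53 ± 0.22 (SD, n = 4 each) in those above 0, and the one below 0 had a 2.01-fold lower ratio (SD 0.86 on the log2 scale, n = 4). With discordant duplicate spots (over 0.5 apart) left out, Obp56h-A and Obp59a-A had too few arrays left to be tested, and limma called Obp56g-A and Obp99b. Without array 3 or array 4 it called Obp56g-A alone of the 4. Without array 2 it did not call Obp99b. That clone has no value there and kept its mean, so that the pooled spread and the adjustment alone had changed. All these refits reuse the values that chose the clones, so their calls describe that choice and are no separate support. Turned, limma called 1 of 1030 clones (0.0971%), and it was no odorant-binding protein clone.

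**Figure D1:**
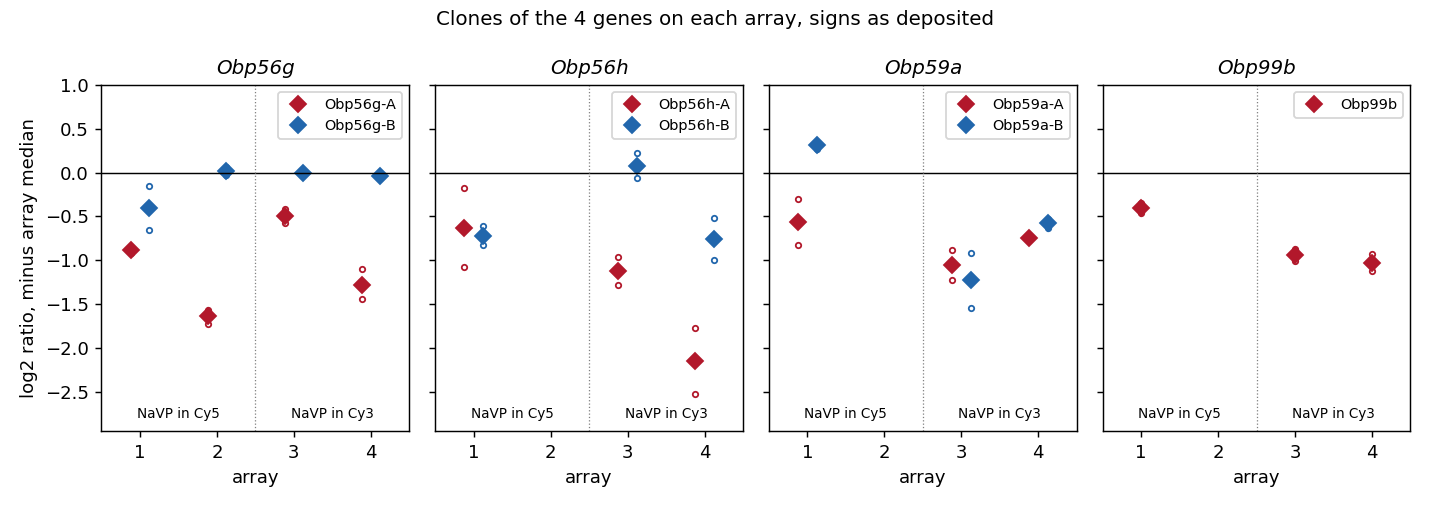
Ratio of each clone of the 4 genes on arrays 1 to 4, on the log2 scale after subtraction of the array median, with signs as deposited; filled markers are the clone average, open circles its spots, red clone A (or the single clone) and blue clone B. Obp56g-A is low on all 4 arrays while Obp56g-B is near 0 on arrays 2 to 4, and the clones of Obp59a part on array 1 alone.

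Second clones of the same genes did not follow the first ones on every array. Obp56g-B was at -0.40 and 0.02 on arrays 1 and 2 and at 0.00 and -0.04 on arrays 3 and 4. Its mean as deposited was -0.10 ± 0.20 (SD, n = 4; limma adjusted p = 0.737), and turned it was -0.09 ± 0.21 (SD, n = 4; limma adjusted p = 0.912). On arrays 2, 3 and 4 it lay within 0.04 of the array median, where Obp56g-A lay 0.50 to 1.64 below it.

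Obp56h-B was at -0.72 on array 1, 0.08 on array 3 and -0.76 on array 4. The mean as deposited was -0.47 ± 0.47 (SD, n = 3; limma adjusted p = 0.284). Fitted by its mean this clone did not pass. Once dye orientation was added as a second coefficient it passed as lower, at -0.53 (limma adjusted p = 0.0221), where 5.73% of all clones passed. That call rests on a spread pooled over clones with 76.4 prior degrees of freedom, and the Cy5 orientation rests on array 1. Turned, the mean of Obp56h-B was -0.01 ± 0.75 (SD, n = 3; limma adjusted p = 0.994).

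Obp59a-B was at 0.31 on array 1, -1.23 on array 3 and -0.58 on array 4. Turned, all 3 values were above 0 and averaged 0.71 ± 0.48 (SD, n = 3; limma adjusted p = 0.361). With the dye coefficient that value was 0.61 and passed (limma adjusted p = 0.009), where 3.11% of all clones passed. This p rests on a spread pooled over clones with 76.4 prior degrees of freedom, and the Cy5 orientation rests on array 1. As deposited, the mean was -0.50 ± 0.77 (SD, n = 3; limma adjusted p = 0.351). Without array 1, Obp59a-B passed under both readings, at -0.91 as deposited (limma adjusted p = 3.94e-04) and 0.91 turned (limma adjusted p = 0.00253). Both remaining arrays then have NaVP in Cy3, and dye and treatment cannot be told apart. Without array 3 its means moved to -0.14 as deposited (limma adjusted p = 0.78) and 0.44 turned (limma adjusted p = 0.998).

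**Figure D2:**
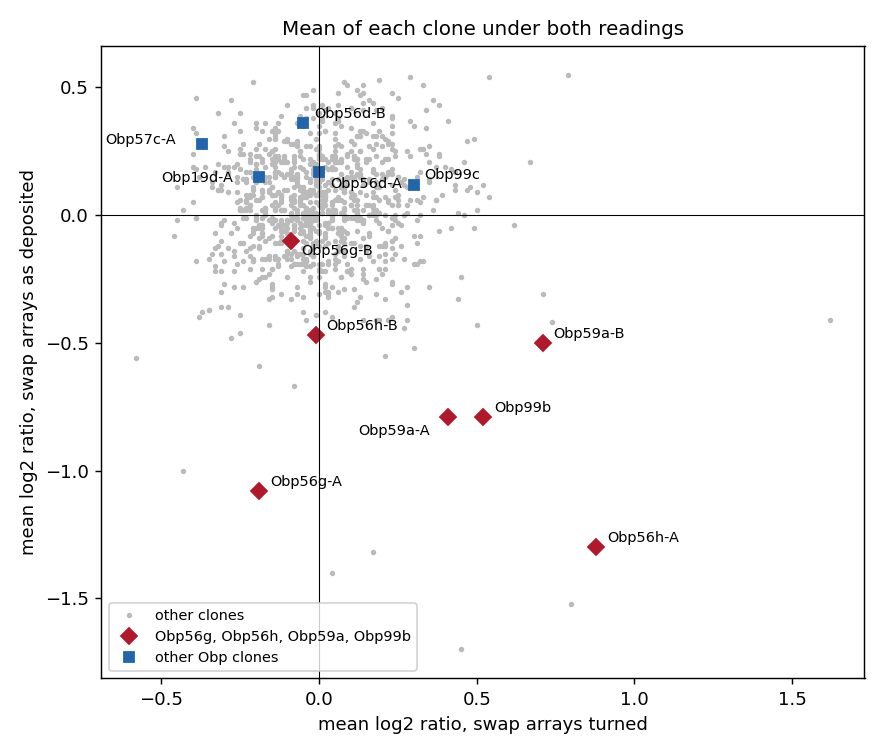
Mean log2 ratio of the 1030 clones on at least 3 arrays, with the swap arrays turned (horizontal) and as deposited (vertical); red diamonds are clones of the 4 genes, blue squares other odorant-binding protein clones, grey points all others. All 7 red clones lie below 0 as deposited, from -1.30 to -0.10, and turned they spread on both sides of 0, from -0.19 to 0.88.

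A difference between clones of 1 gene within an array does not depend on the array median, and its size on that array does not depend on the reading, but its mean over arrays does. Obp56g-A minus Obp56g-B was -0.48, -1.66, -0.50 and -1.24 on arrays 1 to 4 as deposited, so A, named for its lower mean, was the lower clone on every array in that reading. The mean difference was -0.97 ± 0.58 (SD, n = 4), a 1.96-fold gap (exact two-sided sign-flip permutation test, p = 0.125, the smallest that 4 arrays allow). Obp56g-A was chosen as low from these same values, which partly fixes the sign of the difference, so this p is a description. Turned, A was below B on arrays 1 and 2 and above it on arrays 3 and 4, and the mean difference was -0.10 ± 1.26 (SD, n = 4; exact sign-flip permutation p = 1). For Obp56h the difference was 0.09 on array 1, where the spot averages were alike but the spots of Obp56h-A were 0.90 apart. On arrays 3 and 4 it was -1.20 and -1.39. Its mean was -0.83 ± 0.80 (SD, n = 3; exact sign-flip permutation p = 0.5, where 3 arrays cannot go below 0.25). Turned, Obp56h-A was the higher clone on all 3 arrays, by 0.89 ± 0.70 (SD, n = 3; exact sign-flip permutation p = 0.25).

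For Obp59a the pattern was the opposite. The difference was -0.87 on array 1 and 0.18 and -0.16 on arrays 3 and 4, so the clones agreed on the swap arrays and parted on array 1. The mean was -0.28 ± 0.53 as deposited (SD, n = 3; exact sign-flip permutation p = 0.75) and -0.30 ± 0.53 turned (SD, n = 3; exact sign-flip permutation p = 0.5). Among the other 23 genes with 2 or more clones measured together on at least 3 arrays, the 25 clone pairs had a median absolute mean difference of 0.11 as deposited, with quartiles at 0.05 and 0.20, and of 0.15 turned, with quartiles at 0.09 and 0.21. As deposited, 1 of these pairs reached the gap of Obp56g or of Obp56h, that of vig at 1.47, and 5 reached that of Obp59a. Turned, 18 of the 25 pairs reached the gap of Obp56g, 0 that of Obp56h and 2 that of Obp59a. The widest of them turned was that of vig at 0.87, close to the 0.89 of Obp56h. The gap of Obp56g is thus among the widest in one reading and of ordinary size in the other. Since A was chosen as low, these ranks and the sign-flip p-values of A minus B in these genes are a description.

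**Figure D3:**
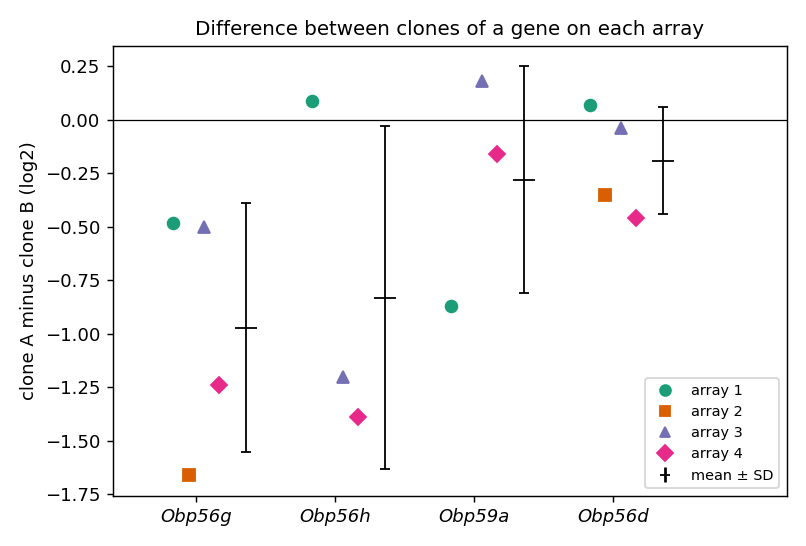
Clone A minus clone B on each array (log2, signs as deposited), for 3 of the chosen genes and for Obp56d, a related gene with 2 clones; bars are the mean ± SD. Obp56g lies below 0 on all 4 arrays, Obp56h only on arrays 3 and 4, and Obp59a is furthest from 0 on array 1, at -0.87.

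Duplicate spots of a clone are adjacent, so they give the error between neighbouring spots of an array, not between its distant parts. For Obp99b they differed by 0.12, 0.15 and 0.19 on arrays 1, 3 and 4, and for Obp56g-A by 0.07 to 0.34 on the 4 arrays. For Obp56h-A they differed by 0.90, 0.32 and 0.76, so the spots of this clone were discordant on arrays 1 and 4. On array 1 the spots of Obp59a-A were 0.52 apart and those of Obp56g-B 0.51 apart, and on array 3 those of Obp59a-B were 0.63 apart. Of all duplicate pairs, 15.1% were this discordant on array 1 and 6.07% to 7.58% on the other arrays. The gap between the clones of Obp56g exceeded the difference between duplicate spots of either clone on arrays 2, 3 and 4. On array 1 it was -0.48 against 0.51 between the spots of Obp56g-B. For Obp56h the gaps were 0.09, -1.20 and -1.39 on arrays 1, 3 and 4, against those 0.90, 0.32 and 0.76 of Obp56h-A. As deposited, the mean gap of Obp56h was -0.50 from the first spots alone and -1.16 from the second spots. Without discordant spots 1 array was left for Obp56h, at -1.20, and 1 for Obp59a, at -0.16.

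The rest of the family was searched by symbol, with lush counted in it. Of 52 odorant-binding protein genes in the reference table, 20 are on the array with a clone of 1 symbol, in 33 clones. Of these, 20 clones (60.6%) had a value on some array and 12 (36.4%), of 8 genes, on at least 3, against 26.4% and 7.45% of all 13824 clones. Besides the 7 clones of the chosen genes these were 5 clones of Obp19d, Obp56d, Obp57c and Obp99c.

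All 5 of these clones had a mean above 0 as deposited. Obp56d, a neighbour in the same gene cluster as Obp56g and Obp56h, was above 0 in both clones on all 4 arrays. Obp56d-A was at 0.21, 0.13, 0.09 and 0.24 on arrays 1 to 4 and Obp56d-B at 0.13, 0.48, 0.12 and 0.70. Their means were 0.17 ± 0.07 and 0.36 ± 0.28 (SD, n = 4 each; limma adjusted p = 0.543 and 0.266). Turned, Obp56d-A averaged 0.00 ± 0.21 and Obp56d-B -0.05 ± 0.50 (SD, n = 4 each; limma adjusted p = 0.998 and 0.978).

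Obp99c, in the same cluster as Obp99b, was at 0.38 and 0.46 on arrays 1 and 2 and at -0.16 and -0.19 on arrays 3 and 4. Its values changed sign with the dyes, so that turned it was above 0 on all 4 arrays, with a mean of 0.30 ± 0.15 (SD, n = 4). It did not pass (limma adjusted p = 0.646). As deposited its mean was 0.12 ± 0.34 (SD, n = 4; limma adjusted p = 0.726).

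Obp57c-A went the other way between orientations, at -0.13 on array 1 and 0.46 and 0.52 on arrays 3 and 4. Turned, its mean was -0.37 ± 0.21, below 0 on all 3 arrays (SD, n = 3; limma adjusted p = 0.646), and as deposited 0.28 ± 0.36 (limma adjusted p = 0.455). Obp19d-A, of a gene known from taste and smell organs, was at -0.05, 0.31 and 0.21 on arrays 1, 3 and 4. Its mean was 0.15 ± 0.19 as deposited and -0.19 ± 0.13 turned (SD, n = 3; limma adjusted p = 0.661 and 0.796). Of the 8 clones that did not choose the genes, 0 passed limma in either reading of the mean alone. Before adjustment, 3 of the 8 had a limma p under 0.05 as deposited, where 14.1% of all clones lay, and 3 of 9 turned (these 8 and Obp56g-A), where 6.89% lay.

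A further 8 clones had values on 1 or 2 arrays. On array 1 alone, Obp19b was at 0.41, Obp19c at -0.67 and 0.44, and Obp99d at -1.28 and 0.25 in its separate clones. Both genes with a pair of clones thus had 1 on each side of 0. The spots behind the -1.28 of Obp99d were 1.28 apart and those behind the 0.44 of Obp19c 0.55 apart. On array 3 alone, Obp44a was at 0.85 and Obp19d-B at 0.23. Obp57c-B was at -0.21 and -0.14 on arrays 3 and 4, where Obp57c-A was at 0.46 and 0.52.

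By gene order in the reference table (assembly Release 6), Obp56g and Obp56h lie on 2R with 2 genes between them, neither protein-coding. Obp59a lies on 2R beside Obp58b, and Obp99b lies on 3R with 1 gene between it and Obp99d. The clones of these neighbours that had values did not share 1 side of 0, as given above for Obp56d, Obp99c and Obp99d.

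The spot numbers of the clones of all 4 genes fall at like places. Counted in 48 runs of 576 consecutive spots, a division taken as the printed blocks of the slide, which the files do not describe, the 7 measured clones start at places 257 to 269 of their runs. Of the 33 odorant-binding protein clones on the array, 15 (45.5%) start at these places, which hold 2.43% of all clones. The span was set by the chosen genes' own clones, whose means ran from -1.30 to -0.10 as deposited (median -0.79). The 5 tested odorant-binding protein clones elsewhere had means from 0.12 to 0.36. Clones with values on fewer arrays did not all keep to that division. On array 1, Obp19b at place 259 was at 0.41 and Obp19c-B at place 269 at 0.44. Obp99d-A, outside these places, was at -1.28 there, and both it and Obp19c-B had discordant spots. The rest kept to the division. At these places Obp19c-A was at -0.67 and Obp57c-B at -0.21 and -0.14. Outside them Obp44a was at 0.85, Obp19d-B at 0.23 and Obp99d-B at 0.25. On array 1, 7 of 10 odorant-binding protein clones at these places lay below 0, against 3 of 7 elsewhere. On array 2 it was 1 of 2 against 0 of 3, on array 3 it was 6 of 8 against 1 of 7, and on array 4 it was 8 of 8 against 1 of 5. Centring puts the median of all clones at 0 on each array. The counts at these places include the clones chosen as low, so in part they restate that choice. Clones of other genes at the same places in any run, 10 of them tested, had means from -0.28 to 0.38 (median -0.06). All measured clones of other genes there, also those on few arrays, had medians of -0.07, -0.51, -0.23 and -0.26 on arrays 1 to 4 (n = 52, 7, 29 and 22). These medians lie below 0 on every array. So do those of all clones at places up to 288 of the runs, at -0.03, -0.11, -0.10 and -0.08 on arrays 1 to 4. At later places the medians were 0.08, 0.21, 0.15 and 0.12. Whether place contributed to the low values of the chosen clones was not tested. The 7 tested clones of other genes that lie within 24 places of a clone of the chosen genes, in the same run, had means from -0.38 to 0.20 (median -0.25). With each array centred on the clones at like places of all runs, the means as deposited were -0.88 for Obp56g-A, -1.21 for Obp56h-A, -0.80 for Obp59a-A and -0.70 for Obp99b. In that refit of the values that made the choice, limma called Obp56g-A alone of the 4.

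The clones of Obp56g and Obp56h lie crossed within these places. Obp56h-A and Obp56g-A both start at place 259, in runs 36 and 44, and Obp56g-B and Obp56h-B both start at place 269 of the same runs. The split by place is therefore the split into A and B, which was made by the mean, and lower values at place 259 restate that choice. On array 3 the clones at place 259 were at -1.12 and -0.50 and those at place 269 at 0.00 and 0.08. On array 4 the clones at place 259 were at -2.15 and -1.28 and those at place 269 at -0.04 and -0.76, so that Obp56h-B was also among the lower clones there, at the percentile 4.43. For Obp59a, Obp59a-B, at place 257 of run 4, and Obp59a-A, at place 269 of run 18, were low together on both swap arrays. The files do not say which part of a gene a clone covers or how the spots were printed, and which of Obp56g and Obp56h each of these clones belongs to rests on the platform annotation, which was not checked against a sequence.

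**Figure D4:**
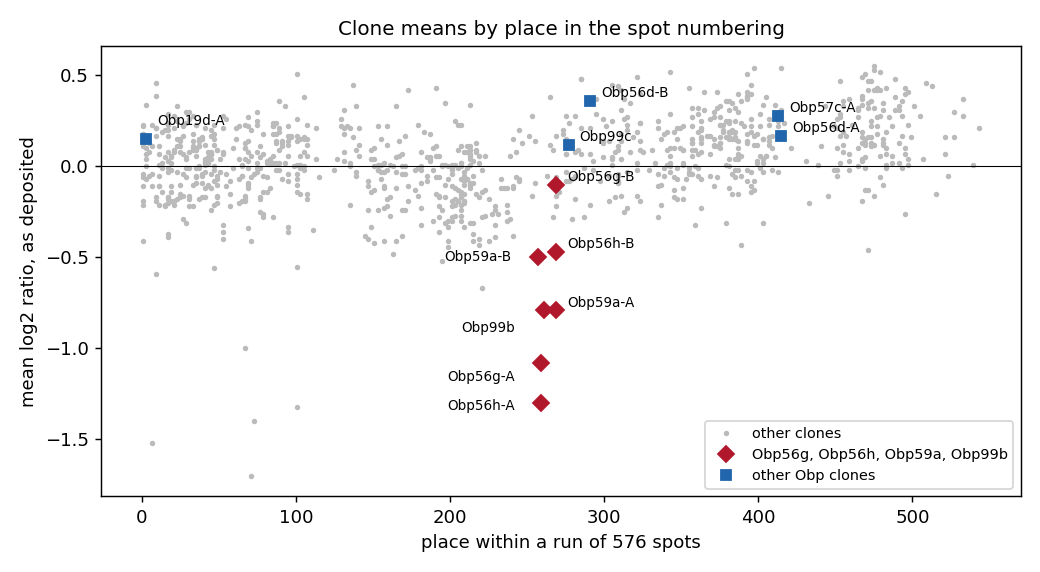
Mean log2 ratio as deposited of the 1030 tested clones against their place in runs of 576 consecutive spot numbers; red diamonds are clones of the 4 genes, blue squares other odorant-binding protein clones. The red clones lie at places 257 to 269 with means from -1.30 to -0.10, and the blue ones lie elsewhere with means from 0.12 to 0.36.

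Named clones of other genes were ranked by likeness to the median profile of the 4 choosing clones, which ran from -1.64 on array 2 to -0.60 on array 1. Likeness was the root mean square difference over shared arrays, which had a median of 1.12 over all named clones. The nearest was a clone of dmGlut, a glutamate transporter gene, at 0.25 over 3 arrays. It was at -1.73, -1.33 and -0.90 on arrays 2, 3 and 4. Next came yip2, an acyl transferase of fatty acid oxidation, at 0.41 and CG3301 at 0.42, then CG1750 and ssp at 0.49 each, all over 3 arrays. Obp99b itself lay at 0.14, Obp59a-A at 0.24, Obp56g-A at 0.29 and Obp56h-A at 0.58. The profile is the median of these 4 clones, and on array 2 it is Obp56g-A alone, so their nearness is built in. The second clones Obp59a-B, Obp56h-B and Obp56g-B lay further off, at 0.63, 0.66 and 1.12.

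Of other chemosensory genes (receptors, CheA and CheB genes and others), 8 are on the array and 3 had a value, on 1 or 2 arrays, so none could be tested. Of secreted proteins of the head fat body and sex-biased head genes, 12 are on the array and 4 were tested in 5 clones. Besides Obp99b, apolpp, the lipophorin precursor, had means as deposited of -0.40 ± 0.13 (SD, n = 3) and -0.10 ± 0.23 (SD, n = 4) in its clones. The sterol carriers Npc2a and Npc2b had 0.39 ± 0.16 and 0.25 ± 0.23 (SD, n = 4 each). None of these 4 clones passed in either reading (limma adjusted p of 0.19 or above). The median over the 5 clones was -0.10 as deposited and 0.13 turned, and over all tested clones 0.05 and -0.01. The 5 include Obp99b, which was chosen as low, so their median in part restates that choice.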

How the data were processed

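Head RNA of NaVP and NF males was hybridised in pairs to 4 cDNA arrays. The authors quantified scans in GenePix Pro 6.0 and normalised ratios in Acuity 4.0, according to the design text. Spots passed at under 3% saturated pixels, R2 from 0.6 and signal-to-noise from 3, so spots of low or uneven signal have no value. The deposited ratios take negative values and so are logs, taken as log2. They give no intensities, and the signal behind a value is unknown. As deposited, the array medians were 1.01, 1.05, 0.54 and 0.24.

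Duplicate spots were averaged, each array was centred on its median over clones, and clones on at least 3 arrays were tested with limma 3.58.1 in R 4.3.3 (intercept only, two-sided, Benjamini-Hochberg over 1030 clones, threshold 0.05), turned and as deposited. Prior degrees of freedom were 7.54 turned and 9.87 as deposited. The number of arrays limits the precision, with 3 or 4 pool pairs behind each tested clone. Besides the spread between these pairs, limma p-values rest largely on a spread pooled over clones. The fit was checked on simulated clones. Clones of a gene were compared by an exact sign-flip test. Genes were named by NCBI gene ID from an old annotation (546 of the 554 tested clones with 1 symbol). The 3 odorant-binding protein clones with several symbols were left out. Named are all measured clones of the 4 genes, other Obp genes on at least 3 arrays (the rest of the measured Obp clones were added after their values were seen), and the 5 nearest profiles. Members and gene lists were chosen with earlier results of these data known. Alternatives changed centring, array minimum, duplicate handling, arrays, dye term and statistic. No sequence is shown, because the reference tables used here hold none.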

Additional observations from a re-analysis of the deposited data

Results flagged for a closer look

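Obp56g-B on array 1, at -0.40, stood apart from its other 3 values (0.02, 0.00 and -0.04 as deposited): the gap to the nearest was 0.863 of the whole range as deposited and 0.908 with the swap arrays turned, above Dixon's critical value for 4 samples. Chance flags about 1 in 20 such groups. The spots of the clone were 0.51 apart on that array.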

How the results depend on the processing

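With 4 arrays the call of a clone rests largely on a pooled spread, and the unknown direction of the swap arrays cannot be settled here. Calls of the 4 choosing clones reuse the values that chose them and only describe that choice. As deposited, the count of called clones was 8; it became 24 with clones on at least 2 arrays, 1 with clones on all 4 (Obp56g-A), 19 with centring by runs of spots, 4 without discordant duplicate spots (Obp56h-A and Obp59a-A then untested), 1 by a SAM statistic (no odorant-binding protein clone), 59 with the dye coefficient and 3 to 19 with an array left out. Without array 3 or 4 (3 and 5 clones called), Obp56g-A was the 1 odorant-binding protein clone called, without array 2 (6) Obp99b was not called, and without array 1 (19) Obp59a-B was called too. Without centring the count was 745, with 5 lower. Centring by place within the run, chosen after seeing the data, gave 4. Turned, the count of 1 became 0 with clones on at least 2 arrays, on all 4 arrays or without centring (at an unadjusted limma p under 0.05, 96, 46 and 6). The count was 2 with centring by runs of spots and 4 by shorter runs, each run cut into equal parts (chosen after seeing the data). With the dye coefficient it was 32, and with an array left out 1 to 12. Without array 1 it was 12, including Obp56h-A, Obp59a-A, Obp59a-B and Obp99b. These clones have no value on array 2, so the swap arrays alone remained for them. Their turned means are then the means as deposited with the sign changed, and dye and treatment cannot be told apart. In all centred alternatives run, the means as deposited stayed below 0, from -1.27 to -0.81 for Obp56g-A, -1.64 to -0.88 for Obp56h-A, -0.94 to -0.64 for Obp59a-A and -0.98 to -0.67 for Obp99b; without centring they were -0.37, -0.70, -0.19 and -0.19. Of 316 alternative clone means, 25 changed sign, none of them of these 4 as deposited; the cause was not tested. Without centring these were, as deposited, Obp56g-B (0.61), Obp56h-B (0.13) and Obp59a-B (0.09), and turned, Obp56d-B (0.27), Obp56g-A (0.13), Obp56g-B (0.23) and Obp56h-B (0.06). Centred by those shorter runs, Obp56d-A gave -0.09 as deposited and -0.05 turned and Obp56g-B 0.10 as deposited. Obp56d-A gave -0.01 as deposited from the first spot, and turned -0.04 by runs, -0.02 from the second spot, -0.00 without discordant spots, and -0.06 to 0.09 with an array left out (below 0 without array 1 or 2). Turned, Obp56g-B gave 0.02 without discordant spots and -0.13 to 0.02 with an array left out (above 0 without array 1), Obp56g-A -0.68 to 0.30 (above 0 without array 1 or 2) and Obp56d-B -0.23 to 0.17 (above 0 without array 4). Obp56h-B turned gave 0.01 centred by place, 0.05 from the first spot, and -0.40 to 0.34 with an array left out (above 0 without array 1 or 3). Clone differences as arrays were left out ran from -1.14 to -0.74 for Obp56g, -1.29 to -0.55 for Obp56h and -0.52 to 0.01 for Obp59a, the last without array 1; turned (added after seeing the data), they ran from -0.55 to 0.42, from 0.65 to 1.29 and from -0.52 to -0.01. No paired analysis was possible because all 4 ratios form 1 group, each array already pairing NaVP with NF RNA.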
